A study of Mus musculus with 96 samples.

Results

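By name the 63 genes here belong to families that modify DNA or histones, bind acetylated histones or move nucleosomes, though some act outside chromatin. They were chosen by symbol and an intensity floor, with earlier results of these data known. A gene entered when its single annotated symbol began with Hdac, Kdm, Kmt, Setd, Smarc, Ezh, Dnmt, Prmt, Sirt, Kat or Tet, or was Chd or Brd followed by a digit. A probe set of it also had to lie above an intensity of 20 on any array. Of 70 symbols that met the name rule, 7 lay at 20 on all 96 arrays and were left out (Dnmt3b, Hdac11, Hdac9, Kdm5d, Setd7, Smarca1 and Smarcd3), and 3 probe sets annotated with several symbols were not used. The members are 63 of 7741 named genes, within 10543 items tested when unnamed probe sets are included. They comprise 9 deacetylases, 4 acetyltransferases, 5 bromodomain proteins, 11 histone lysine methyltransferases, 6 arginine methyltransferases, 10 demethylases, 3 DNA methylation genes and 15 remodellers.

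The samples were mouse primary bone marrow dendritic cells that received 1 of 5 Toll-like receptor ligands (labelled Lps, Pic, Pam, Cpg and Grd) and were taken at 9 times from 0.5 to 24 h. The labels give only these short names; as known from the study, the ligands are lipopolysaccharide (Lps, a TLR4 ligand), poly(I:C) (Pic, TLR3), a bacterial lipopeptide (Pam, TLR2), CpG DNA (Cpg, TLR9) and gardiquimod (Grd, TLR7). Lps, Pic, Pam and Grd had 18 arrays apiece (2 per time), Cpg had 16 (1 at 16 h and 1 at 24 h), and 8 arrays came from untreated cells (labelled Control, 1 each at 0, 1, 2, 4, 6, 8, 12 and 24 h). Strain, age, dose and the number of animals are not given in the sources used here. Nor do the labels say whether the 2 arrays of a ligand and time came from separate cultures, so a p-value here reflects no more than the spread between the samples at hand, and that spread may be technical. By the well codes in the labels, every time point of 4 ligands (all but Cpg) had a plate column of its own, while Cpg and Control shared other columns. Place therefore cannot be told apart from time within those 4 ligands, nor from ligand against Control. In sample order the columns repeat from first to last, and each replicate series of those 4 ligands lies in a pass of its own. If these passes are plate rows, row cannot be told apart from ligand either.

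Values are array intensities on a linear scale with a floor of 20, so a value of 20 is only an upper bound. Members with high and low signal were both present: the mean intensity of a member in Control cells ranged from 20 to 799.1 with a median of 104.4, and Chd6, Kdm8 and Sirt4 lay at the floor on at least 90 arrays. Paired arrays of a ligand and time correlated across all items with Pearson's r between 0.9852 and 0.9982. The label of the cells was checked against markers. Cd74, H2-Aa and Itgax, markers of antigen-presenting and dendritic cells, averaged 7975, 5161 and 3363 in Control cells. Flt3 and Zbtb46 were low at 28.8 and 40.4, Cd209a lay at the floor, and the macrophage markers Csf1r and Cd68 averaged 2325 and 3757, so the markers do not separate dendritic cells from macrophages. Neutrophil genes such as S100a8 (2243) and Ngp (1032) were also present. Markers of T cells, B cells, NK cells, erythroid cells, basophils and mast cells that were on the array lay at the floor in all Control arrays. In RNA from whole cultures, fewer cells of a type and less RNA per cell cannot be told apart.

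Chromatin enzymes set how accessible genes are to transcription factors. Acetyltransferases (Kat) add acetyl groups to histones and deacetylases (Hdac and the NAD-dependent Sirt) remove them, while bromodomain proteins (Brd) bind acetylated histones. Lysine methyltransferases (Kmt, Setd, Ezh), arginine methyltransferases (Prmt) and demethylases (Kdm) write and erase histone methylation, and Dnmt proteins methylate DNA or aid in it. Many Smarc and Chd proteins use ATP to move nucleosomes or are subunits of complexes that do. In myeloid cells, Toll-like receptor signals recruit such enzymes to inflammatory genes, and the arrays here measured the enzymes' own transcripts.

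Each ligand was compared with Control in 3 windows (0.5 to 2 h, 4 to 8 h and 12 to 24 h). Each window held 6 ligand arrays, or 4 for Cpg at 12 to 24 h, against the 8 Control arrays. Differences are on the log2(intensity + 1) scale with standard errors from a limma model of all 96 arrays. A gene is said to have risen or fallen when its Benjamini-Hochberg adjusted p over all 10543 items was under 0.05 and the log2 difference was at least 1 in size. By that rule 14 of the 63 members changed in at least 1 window, 6 upward and 8 downward, and 49 did not. The share was 22.2% of members, against 23% of all items, so the members' share lay near the background. By direction the shares were 9.52% upward (background 11.1%) and 12.7% downward (background 12.7%). Those that rose were Dnmt3l, Dnmt3a, Sirt1, Chd1, Kat2b and Kmt5a. Hdac5, Kmt5c, Dnmt1, Sirt3, Prmt5, Kdm2b, Prmt3 and Kdm5b fell.

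Most changes lay at 4 to 8 h. In that window Lps changed 11 members (17.5%, against 15.3% of all items), of which 3 rose (background 7.05%) and 8 fell (8.22%). Cpg changed 6 members, 9.52% against 10.9% of all items, 1 upward (5.4%) and 5 downward (5.53%). With Pic 5 members changed, 7.94% against 7.72%, 3 upward (4.93%) and 2 downward (2.79%). Grd likewise changed 5 members against a background of 8.45%, 1 upward (4.53%) and 4 downward (3.92%). Pam changed 4 members, 6.35% against 7.48%, 2 upward (3.48%) and 2 downward (4%). The median log2 difference of the members in this window lay between -0.19 (Cpg) and -0.07 (Pam), beside medians of -0.11 to -0.03 for all items. Over 12 to 24 h the counts were 3 with Lps (background 9.12%), 2 with Pic (8.54%), 1 with Pam (6.39%), 3 with Cpg (7.09%) and 2 with Grd (6.72%). At 0.5 to 2 h 1 member changed with Lps (background 2.12%) and 1 with Pam (2.39%). In limma none of the 63 passed in that early window with Pic (background 0.863%), Cpg (2.14%) or Grd (1.12%), while 41, 38 and 28 members had an unadjusted p under 0.05 at any size.

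Many of these calls lie close to a log2 difference of 1, and dim genes depend on the constant added before the logarithm. Of the 44 pairs of a member and a window that passed, 23 also passed with 16 added in place of 1. With each array centred on its median 41 pairs passed, 35 of them among the 44, and the split became 21 upward and 20 downward, against 15 and 29 without centring. Centring gave 6 upward and 5 downward with Lps at 4 to 8 h, where Brd2, Chd4 and Kdm5c passed upward, 5 and 1 with Pic, and 2 and 3 with Grd. The mean of the array medians on the log2 scale was 7.02 with Lps, 7.04 with Pic, 7.06 with Pam, 7.03 with Cpg and 7.08 with Grd, against 7.12 in Control cells. Against the Control arrays of the same times 49 passed, 38 of them among the 44. Single libraries moved the smaller counts: Pic at 4 to 8 h gave 9 members without the 4 h arrays, 8 without the first array at 8 h and 3 without the second at 4 h. Pic at 12 to 24 h gave 4 without the 16 h arrays or the Control array at 24 h, and 5 without the 24 h arrays. Pam at 12 to 24 h gave 2 without the 24 h arrays, the first array at 12 h or the Control array at 24 h. Cpg at 0.5 to 2 h gave 1 without the 0.5 h arrays, the 1 h arrays or the second array at 2 h. Precision is limited by the number of arrays.

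**Figure D1:**
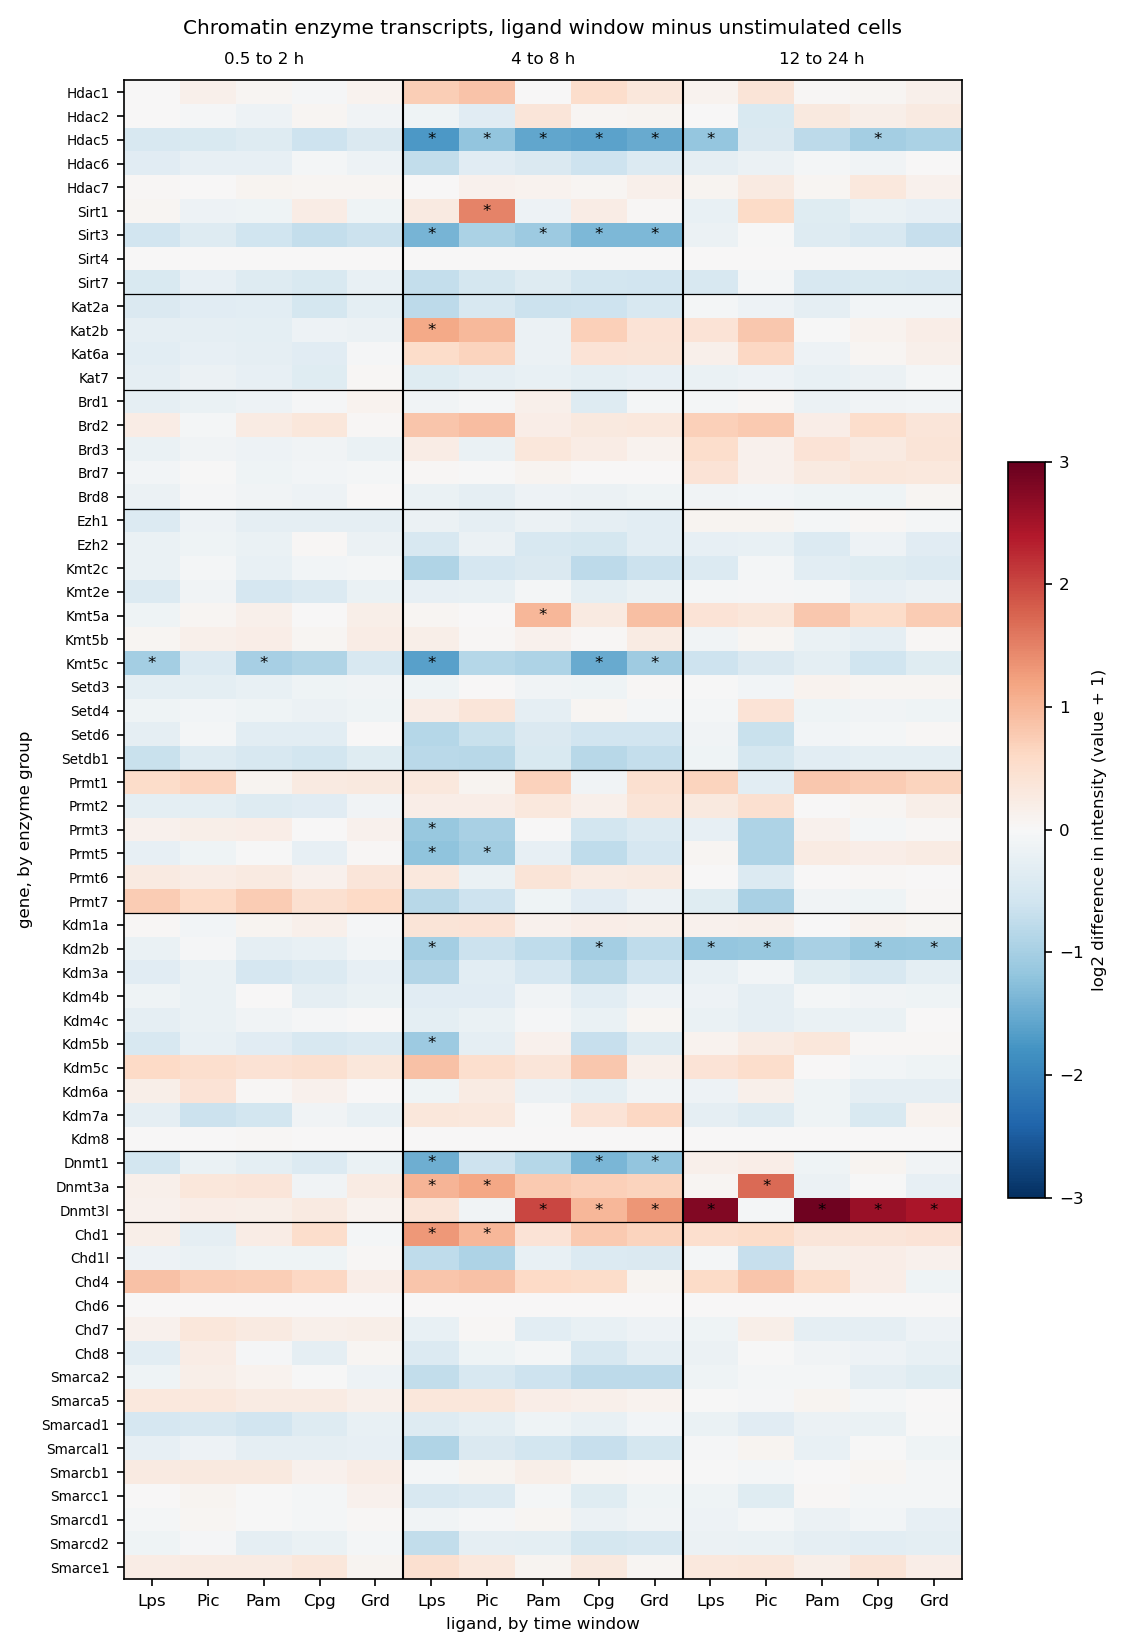
Log2 difference in intensity between each ligand window and unstimulated cells (colour scale, red higher and blue lower) for the 63 chromatin enzyme genes (rows, by enzyme group) and the 5 ligands in 3 time windows (columns); an asterisk marks adjusted p under 0.05 with a log2 difference of at least 1 in size. Most of the 44 marked squares lie at 4 to 8 h, and Dnmt3l has the largest rise, 2.92 with Pam at 12 to 24 h.

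The DNA methylation genes included Dnmt3l, which had the largest difference of any member, and each had a time course of its own. Dnmt3l encodes a catalytically inactive partner that stimulates the de novo methyltransferases and is best known from germ cells. Its transcript lay near the floor in Control cells and rose with Lps, Pam, Cpg and Grd, but with Pic it remained near the floor. Dnmt3l intensity at 12 to 24 h was lowest at 147.8, median 170.3 and highest at 257.3 with Pam, against 20, 22.3 and 32.4 in Control cells, a log2 difference of 2.92 ± 0.08 (adjusted p = 5e-35). With Lps the values of Dnmt3l were 108.3, 155.8 and 263.2 and the difference was 2.77 ± 0.08. The groups did not overlap in either comparison.

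Grd raised Dnmt3l at 12 to 24 h to 106.3, 119 and 182.4 (lowest, median, highest), a log2 difference of 2.45 ± 0.08. The 4 late Cpg arrays of Dnmt3l read 122.7 and 122.5 at 12 h, 138.7 at 16 h and 194.4 at 24 h, a difference of 2.6 ± 0.1. Pic arrays of Dnmt3l lay between 20 and 26 in the same window, inside the Control range, and the difference was -0.06 ± 0.08 (adjusted p = 0.61). The rise started at different times. The log2 difference of Dnmt3l at 4 to 8 h was 2.01 ± 0.08 with Pam, 1.33 ± 0.08 with Grd and 1.0 ± 0.08 with Cpg, all 3 passing the rule, and 0.36 ± 0.08 with Lps. The Cpg value at 4 to 8 h sat at the threshold: it was 0.79 without the 8 h arrays, 0.96 without the second Cpg array at 8 h, 0.99 without the first at 4 h, and between 0.97 and 1.0 without the Control array at 0, 1, 6, 12 or 24 h. With 16 added before the logarithm Dnmt3l gave 0.70 with Cpg and 0.95 with Grd at 4 to 8 h, and against Control arrays of the same times Cpg gave 0.86, all under the threshold. Later the Lps level came up to that of the others: from 12 to 24 h against 4 to 8 h, Dnmt3l was 2.4 ± 0.09 higher with Lps, 1.6 ± 0.1 higher with Cpg and 1.12 ± 0.09 higher with Grd on the log2 scale.

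Dnmt3a, a de novo DNA methyltransferase, rose with Lps and Pic at 4 to 8 h and only Pic kept it above the threshold later. The lowest, median and highest intensities of Dnmt3a at 12 to 24 h were 629.4, 693.3 and 711.1 with Pic, against 186.2, 213.9 and 226.6 in Control cells. All 6 Pic arrays lay above all 8 Control arrays, with a log2 difference of 1.69 ± 0.05 (adjusted p = 1.6e-35). Dnmt3a intensity at 4 to 8 h was 350.8, 517.1 and 553 with Pic, a difference of 1.15 ± 0.05, and 378, 412.8 and 496.6 with Lps, a difference of 1.02 ± 0.05. The other ligands gave smaller differences for Dnmt3a in that window: 0.79 with Pam, 0.71 with Cpg and 0.66 with Grd. By 24 h the 2 Lps arrays of Dnmt3a read 168.4 and 183.3 and the 2 Pam arrays 143.8 and 133.4, while the Pic arrays read 629.4 and 699. The Lps call was lost without the 6 h arrays (0.91), without the second 4 h array (1.0) and without the Control array at 24 h (0.99), and the value was 0.97 with 16 added.

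Dnmt3a is measured by 5 probe sets above the floor. In the late Pic window their differences ranged from 0.63 to 1.69 and 3 of the 5 passed the rule. With the mean of the 5 probe sets the differences at 4 to 8 h were 0.93 with Pic and 0.79 with Lps, so neither passed, while the late Pic rise still passed.

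Dnmt1, the maintenance methyltransferase that copies methylation after replication, fell at 4 to 8 h with Lps, Cpg and Grd and was near the Control level later, with late means of 263.6 with Lps, 237.4 with Cpg and 221.7 with Grd against 236.4 in Control cells. With Lps the lowest, median and highest intensities of Dnmt1 at 4 to 8 h were 53.4, 82.3 and 132.7, against 218.3, 233.7 and 265.3 in Control cells (log2 difference -1.47 ± 0.06, adjusted p = 3.9e-27). Cpg gave 64.8, 88 and 121 for Dnmt1, a difference of -1.36 ± 0.06. In Grd cells Dnmt1 read 79.4, 99.5 and 136.2, a difference of -1.18 ± 0.06. No array of these 3 groups overlapped Control. Pam and Pic gave -0.85 ± 0.06 and -0.61 ± 0.06, short of the size threshold, and the Lps minus Pic difference of -0.87 ± 0.07 was likewise short of it.

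Dnmt1 was lowest at 4 h with Lps, where the 2 arrays read 53.4 and 62.8, and at 24 h they read 270.3 and 299.2. From 12 to 24 h against 4 to 8 h Dnmt1 was higher by 1.62 ± 0.07 with Lps, by 1.45 ± 0.08 with Cpg and by 1.07 ± 0.07 with Grd on the log2 scale. The Grd value was 0.98 without the second array at 12 h. Over all members, 6 were higher late than at 4 to 8 h with Lps (Dnmt3l, Dnmt1, Prmt5, Sirt3, Kdm5b and Kmt5c, 9.52%), 2 with Cpg and 2 with Grd. None was lower late. Control cells had upward fitted changes over the day for Sirt3, Kdm5b and Kmt5c and a downward one for Prmt5. The shares of all items that passed, higher and lower together, were 6.82% with Lps, 4.12% with Cpg and 2.63% with Grd. With Pic (background 2.27%) and Pam (2.3%) limma passed 0 members, and 33 and 30 had an unadjusted p under 0.05.

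A list of cell cycle and replication genes, 28 of them tested, is given beside Dnmt1. With Lps at 4 to 8 h 2 of the 28 were higher (Mki67, Tyms; 7.05% of all items were) and 5 lower (Ccna2, Mcm7, Mcm4, Rrm1, Top2a; 8.22% of all items), with a median log2 difference of -0.65. Pic gave 1 higher and 2 lower (4.93% and 2.79% of all items), Pam 2 and 3 (3.48% and 4%), Cpg 1 and 5 (5.4% and 5.53%) and Grd 2 and 5 (4.53% and 3.92%). Their medians in that window were -0.55 for Pic, -0.67 for Pam, -0.72 for Cpg and -0.69 for Grd. At 12 to 24 h, when Dnmt1 was near the Control level, the list's median was -0.57 for Lps, -0.71 for Pic, -0.43 for Pam, -0.34 for Cpg and -0.42 for Grd, and Pic had the most called genes, 0 higher and 8 lower of the 28. The part of cell cycle state in the Dnmt1 values was not tested.

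**Figure D2:**
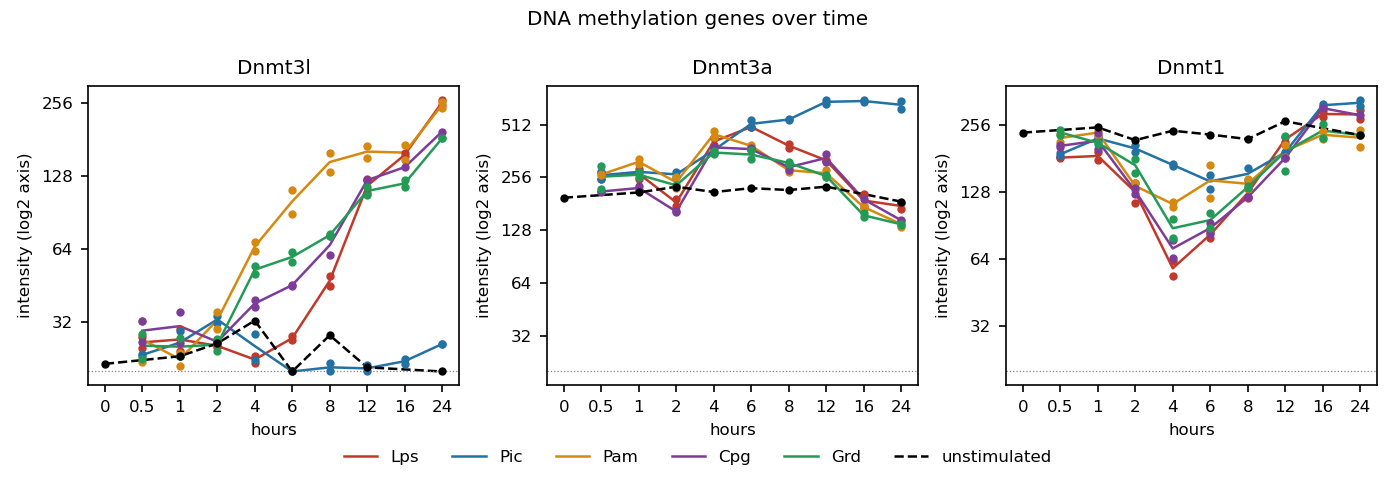
Array intensity (log2 axis) against hours after stimulation for Dnmt3l, Dnmt3a and Dnmt1; dots are single arrays, lines join the means of each time, the dashed black line is unstimulated cells and the dotted line is the floor of 20. Dnmt3l climbs with every ligand except Pic, Dnmt3a stays high only with Pic (629.4 to 711.1 at 12 to 24 h), and Dnmt1 dips at 4 h to 53.4 and 62.8 with Lps.

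The RefSeq promoters of both rising genes are shown because Pic raised Dnmt3a but not Dnmt3l, while both rose with Lps. The windows are from build GRCm38.p6, 250 bases before to 50 bases after the first listed start. The Dnmt3l window is chr10:78042037-78042336 on the plus strand and holds 6 CG dinucleotides, and the Dnmt3a window is chr12:3806730-3807029 on the plus strand and holds 46. No base is in capitals because none of the 3 motifs searched below was in them.
Dnmt3l: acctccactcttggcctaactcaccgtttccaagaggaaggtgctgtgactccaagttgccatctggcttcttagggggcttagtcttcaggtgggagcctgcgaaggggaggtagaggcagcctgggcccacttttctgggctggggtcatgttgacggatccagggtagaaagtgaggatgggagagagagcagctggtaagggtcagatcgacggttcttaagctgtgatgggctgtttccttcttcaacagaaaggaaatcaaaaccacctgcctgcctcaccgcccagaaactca
Dnmt3a: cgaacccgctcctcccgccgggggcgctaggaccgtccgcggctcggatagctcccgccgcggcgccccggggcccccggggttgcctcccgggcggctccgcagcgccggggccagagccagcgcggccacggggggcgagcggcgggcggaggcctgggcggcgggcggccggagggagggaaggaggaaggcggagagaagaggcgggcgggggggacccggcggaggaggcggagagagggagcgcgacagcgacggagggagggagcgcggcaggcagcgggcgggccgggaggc

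Among the 9 deacetylases, 2 fell with most ligands and 1 rose with Pic. Of all items, 12.7% fell and 11.1% rose in at least 1 ligand window, and these shares stand beside the enzyme groups below too. Hdac5, a class IIa deacetylase that shuttles between nucleus and cytoplasm, was the only member that fell with all 5 ligands. With Lps at 4 to 8 h the lowest, median and highest intensities of Hdac5 were 20, 20 and 22.4, against 46.3, 75.6 and 92.3 in Control cells. Because 4 of the 6 Lps arrays lay at the floor, the log2 difference of -1.72 ± 0.11 (adjusted p = 9.7e-21) bounds the fall from below. The Cpg, Pam and Grd arrays of Hdac5 in this window ranged from 20 to 29.8, with differences of -1.6, -1.56 and -1.52 (each ± 0.11). Pic arrays lay between 27 and 33.8 (-1.18 ± 0.11), and Lps minus Pic was -0.54 ± 0.11. No ligand array of Hdac5 overlapped Control at 4 to 8 h.

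Hdac5 stayed down later with Lps and Cpg. The Lps arrays at 12 to 24 h read 20.9, 33.7 and 39.8 (lowest, median, highest; -1.15 ± 0.11), and the Cpg arrays read 28.8 and 27.4 at 12 h, 39.8 at 16 h and 35.4 at 24 h (-1.01 ± 0.13). Grd, Pam and Pic gave -0.94, -0.78 and -0.44. Without the 12 h arrays the late differences of Hdac5 were -0.94 with Lps and -0.87 with Cpg, and the Cpg call was also lost without the second Cpg array at 12 h (-1.0) or the Control array at 6, 8, 12 or 24 h (-0.98 to -0.95). Control values of Hdac5 were themselves 52.3 at 0 h and 87.4 at 24 h. Against the Control arrays of the same times the late differences were -1.62 for Lps, -1.43 for Cpg, -1.35 for Grd and -1.11 for Pam, all past the threshold, while Pic gave -0.85. With 16 added Hdac5 gave -0.89 with Pic at 4 to 8 h and, late, -0.87 with Lps and -0.77 with Cpg, all under the threshold.

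Sirt3, the main mitochondrial deacetylase, fell at 4 to 8 h with Lps, Grd, Cpg and Pam. The Lps arrays of Sirt3 read 20, 20 and 23.9 (lowest, median, highest), against 43.6, 53.9 and 81 in Control cells, a log2 difference of -1.39 ± 0.11 (adjusted p = 1.8e-16) that is a lower bound in size because 4 of 6 arrays were at the floor. Grd arrays of Sirt3 ranged from 20.3 to 24.5 (-1.35 ± 0.11), Cpg arrays from 20 to 27.1 (-1.34 ± 0.11) and Pam arrays from 24.5 to 28.5 (-1.08 ± 0.11). None reached the lowest Control array. Pic arrays lay at 24.3 to 32.9, a difference of -0.96 ± 0.11. Sirt3 was higher again at 12 to 24 h than at 4 to 8 h with Lps, by 1.22 ± 0.12, and the 24 h Lps arrays read 79.2 and 67.4. Control arrays of Sirt3 also read 43.6 at 0 h and 81 at 24 h. Their fitted log2 change over the day was 0.94 ± 0.16, short of the size threshold. Sirt3 is dim, and with 16 instead of 1 added before the logarithm the 4 to 8 h differences of Sirt3 shrank to between -0.98 and -0.79, below the size threshold.

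Sirt1, a nuclear deacetylase whose substrates include p53 and the p65 subunit of NF-kB, rose only with Pic. At 4 to 8 h its lowest, median and highest intensities were 380.3, 616.5 and 691 with Pic, against 177.1, 196.4 and 208.7 in Control cells (log2 difference 1.49 ± 0.05, adjusted p = 3.2e-30), with no overlap. The Pic arrays of Sirt1 read 691 and 687.9 at 8 h and 224.5 and 214.6 at 24 h. The test of the ligand difference itself passed for all 4 pairs at 4 to 8 h: Pic minus Pam was 1.65 ± 0.06, Pic minus Grd 1.46 ± 0.06, Pic minus Cpg 1.27 ± 0.06 and Lps minus Pic -1.21 ± 0.06. Lps arrays of Sirt1 were highest early, at 298.3 and 333.2 at 2 h and 331.3 and 289.3 at 4 h, and the Lps difference over 4 to 8 h was 0.28 ± 0.05.

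The other 6 deacetylases did not pass the rule in any window. Hdac1, a class I enzyme of several corepressor complexes, came closest, with a median of 1033 with Pic at 4 to 8 h against 553.2 in Control cells and a difference of 0.86 ± 0.06. Hdac6 and Sirt7 were lowest with Lps at 4 to 8 h, at -0.73 ± 0.09 and -0.71 ± 0.05. Hdac2 and Hdac7 stayed within 0.5 in every window, and Sirt4 lay at the floor on nearly all arrays.

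The promoters of the 3 deacetylases that changed are shown because Hdac5 and Sirt3 fell together while Sirt1 rose with a single ligand. They are chr11:102230123-102230422 (minus strand) for Hdac5, chr7:140882260-140882559 (minus strand) for Sirt3 and chr10:63338986-63339285 (minus strand) for Sirt1, from RefSeq on GRCm38.p6 at the first listed start. Capitals in the Sirt3 window mark a match to the kappaB motif, which starts 53 bases before the gene's start.
Hdac5: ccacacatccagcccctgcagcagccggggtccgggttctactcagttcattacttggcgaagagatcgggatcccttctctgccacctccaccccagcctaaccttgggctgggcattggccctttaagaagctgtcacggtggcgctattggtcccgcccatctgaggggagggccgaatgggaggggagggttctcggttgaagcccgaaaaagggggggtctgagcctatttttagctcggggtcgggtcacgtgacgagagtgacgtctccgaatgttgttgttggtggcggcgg
Sirt3: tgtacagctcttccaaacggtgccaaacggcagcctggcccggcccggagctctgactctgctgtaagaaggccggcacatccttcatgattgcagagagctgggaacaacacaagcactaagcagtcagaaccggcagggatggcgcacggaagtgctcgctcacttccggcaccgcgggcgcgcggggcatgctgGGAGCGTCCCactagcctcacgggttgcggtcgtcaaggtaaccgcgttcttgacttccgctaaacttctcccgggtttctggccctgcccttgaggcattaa
Sirt1: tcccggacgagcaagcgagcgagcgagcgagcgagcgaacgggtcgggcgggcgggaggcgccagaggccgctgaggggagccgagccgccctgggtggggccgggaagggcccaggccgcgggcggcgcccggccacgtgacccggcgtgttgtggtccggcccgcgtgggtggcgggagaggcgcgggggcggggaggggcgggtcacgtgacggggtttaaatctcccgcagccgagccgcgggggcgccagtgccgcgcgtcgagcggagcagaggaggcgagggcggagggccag

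Among 11 histone lysine methyltransferases, Kmt5c fell and Kmt5a rose, although both act on the same lysine of histone H4. Kmt5a adds the first methyl group and Kmt5c the later ones, which mark compact chromatin. Kmt5c fell most with Lps at 4 to 8 h, to 23.7, 30.6 and 46.8 (lowest, median, highest), against 69.2, 101.6 and 148.7 in Control cells (log2 difference -1.64 ± 0.12, adjusted p = 1.1e-17). In the same window Cpg arrays of Kmt5c ranged from 27.8 to 42.5 (-1.51 ± 0.12) and Grd arrays from 40.5 to 54.9 (-1.06 ± 0.12). All arrays of the 3 groups lay below the lowest Control array. Pam and Pic gave -0.93 ± 0.12 and -0.86 ± 0.12 for Kmt5c. The Grd call was lost without the first Grd array at 4 h (-0.99) or the Control array at 12 or 24 h (-0.98 each), with 16 added (-0.87) and with centred arrays (-0.96).

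Kmt5c was also the only member called at 0.5 to 2 h. Its log2 difference there was -1.01 ± 0.12 with Lps, over arrays from 35.4 to 67.7, and -1.0 ± 0.12 with Pam, over arrays from 21.6 to 68.1. Those early calls rested on the Control mean over all times. The Control arrays of Kmt5c read 78.3 at 0 h, 69.2 at 1 h and 72.8 at 2 h, but 148.7 at 12 h and 148.5 at 24 h, a fitted change of 1.22 ± 0.21 over the day (adjusted p = 0.038) that was 1 of 2 member trends called in Control cells (background 3.25%). Against the Control arrays of the same times the early differences were -0.67 with Lps and -0.71 with Pam, and the late ones were -1.22 with Lps and -1.33 with Cpg. The early calls were also lost without the 2 h ligand arrays (-0.81 with Lps, -0.59 with Pam), without the first Lps array at 0.5, 1 or 2 h (-1.0 to -0.97), without the first Pam array at 0.5 or 1 h or the second at 2 h (-1.0 to -0.89), and without the Control array at 6, 8, 12 or 24 h (-0.99 to -0.92).

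Kmt5a rose with Pam. Its lowest, median and highest intensities at 4 to 8 h were 841, 912.6 and 1077 with Pam, against 400.4, 474.5 and 529.3 in Control cells, a log2 difference of 1.0 ± 0.06 (adjusted p = 2.4e-22) with no overlap. Grd lay close by: Pam minus Grd was 0.1 ± 0.06 for Kmt5a, while Pic minus Pam was -0.98 ± 0.06 and Lps minus Pam -0.93 ± 0.06. The Pam value sat at the threshold and was 0.92 without the 6 h arrays, and 0.97 to 0.99 without the second Pam array at 4, 6 or 8 h or the Control array at 2, 6 or 24 h. A second probe set of Kmt5a gave 1.18 and passed the rule. Of the other members of the group, Kmt2c (-0.9 ± 0.07), which methylates histones at enhancers, and Setd6 (-0.85 ± 0.08) were lowest with Lps at 4 to 8 h, and the silencing enzyme Setdb1 (-0.84 ± 0.08 with each) was lowest with Pic and Cpg in that window. Ezh2, the catalytic subunit of a Polycomb repressive complex, went no lower than -0.52 ± 0.07, with Cpg.

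The Kmt5c promoter, chr7:4739877-4740176 (plus strand, RefSeq, GRCm38.p6), is shown because capitals mark the single E2F motif in it, 105 bases before the start, read on the opposite strand.
Kmt5c: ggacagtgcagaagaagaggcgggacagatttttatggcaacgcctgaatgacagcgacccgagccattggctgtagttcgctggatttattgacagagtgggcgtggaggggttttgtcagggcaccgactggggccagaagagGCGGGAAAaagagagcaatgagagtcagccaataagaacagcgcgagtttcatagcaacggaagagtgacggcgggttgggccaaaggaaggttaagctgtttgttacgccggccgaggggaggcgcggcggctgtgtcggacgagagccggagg

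Among 10 demethylases, Kdm2b showed the fall that lasted longest. Kdm2b removes methyl groups from histone H3 and brings a Polycomb complex to CpG islands. At 12 to 24 h its lowest, median and highest intensities were 106.3, 121 and 126.7 with Lps, against 237.5, 266.4 and 314.2 in Control cells (log2 difference -1.17 ± 0.06, adjusted p = 2.8e-23). Pic arrays of Kdm2b ranged from 102.1 to 144 (-1.13 ± 0.06) and Grd arrays from 112.5 to 137.2 (-1.12 ± 0.06). The 4 Cpg arrays read 100.3 and 109.5 at 12 h, 131.6 at 16 h and 127.5 at 24 h (-1.13 ± 0.07). Pam gave -0.98 ± 0.06, and no late array of any ligand reached the lowest Control array. Against Control arrays of the same times, 12 and 24 h, the late Pic difference was -0.94.

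Kdm2b was no closer to Control late than at 4 to 8 h. From 12 to 24 h against 4 to 8 h it was lower by 0.47 ± 0.07 with Pic and by 0.35 ± 0.07 with Grd on the log2 scale, and the other 3 ligands gave -0.21 to -0.12. At 4 to 8 h Kdm2b passed with Lps (-1.02 ± 0.06) and Cpg (-1.01 ± 0.06), both near the threshold. The Lps value was -0.94 without the 6 h arrays, -1.0 without the 8 h arrays and -0.98 without the Control array at 4 h. The Cpg value was -0.88 without the 6 h arrays, -0.96 without the 8 h arrays, -0.98 to -0.96 without the first array at 4 or 8 h or the second at 6 h, and -1.0 to -0.98 without the Control array at 0 or 4 h. With 16 added Kdm2b gave -0.94 for Lps and -0.93 for Cpg, and centring gave -0.83 and -0.87.

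Kdm5b, a demethylase that removes an activating mark from histone H3, fell with Lps. Its 4 to 8 h arrays read 20, 37.9 and 52.2 (lowest, median, highest) with Lps, against 50.3, 74 and 92.2 in Control cells (-1.08 ± 0.09, adjusted p = 4.2e-15), and the highest Lps array overlapped the lowest Control array. Both 4 h arrays lay at the floor, so -1.08 is a lower bound in size, and without them the difference was -0.72. It was -0.81 with 16 added and -0.88 with centred arrays. Lps minus Pam was -1.2 ± 0.1 for Kdm5b, and a second, dimmer probe set gave -0.2 for Lps against Control. Its relative Kdm5c was highest with Lps at 4 to 8 h, at 0.87 ± 0.11. Kdm3a, a demethylase of a silencing mark, was lowest there, at -0.87 ± 0.06.

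**Figure D3:**
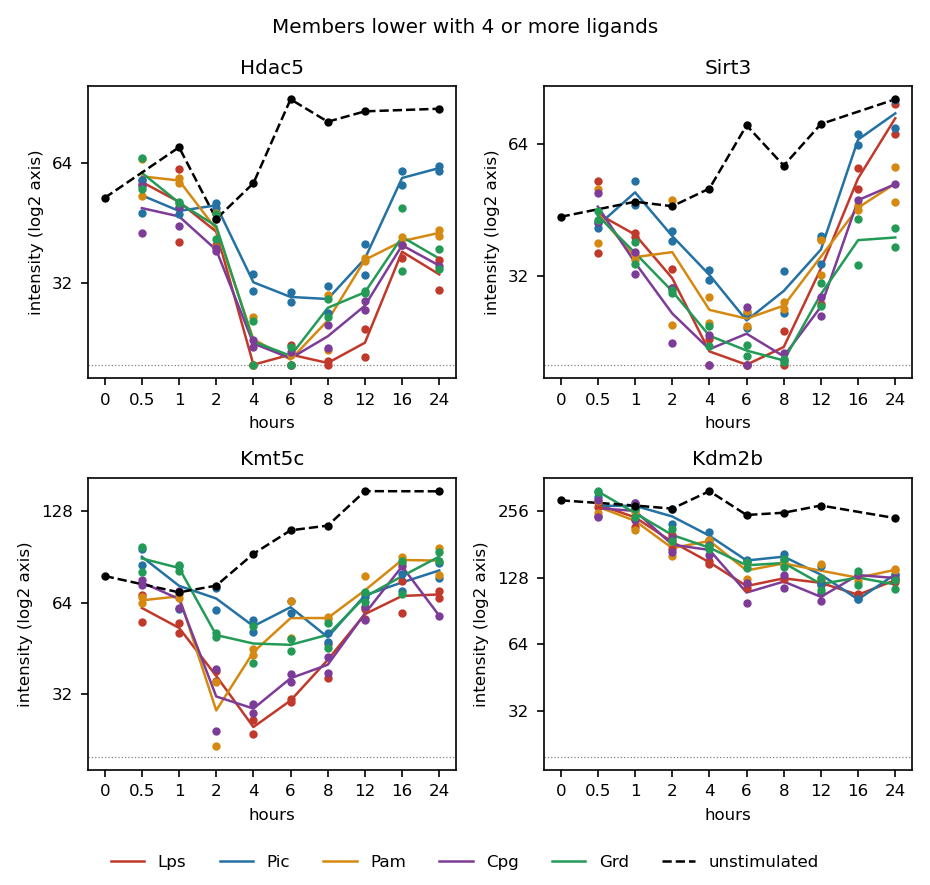
Array intensity (log2 axis) against hours for Hdac5, Sirt3, Kmt5c and Kdm2b, with dots for single arrays, lines for the mean of each time, a dashed black line for unstimulated cells and a dotted line at the floor of 20. Hdac5 and Sirt3 approach the floor at 4 to 8 h and climb later, the unstimulated level of Kmt5c climbs to 148.5 at 24 h, and Kdm2b stays between 100.3 and 147.6 from 12 to 24 h.

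Of 4 acetyltransferases and 5 bromodomain proteins, Kat2b passed the rule. Kat2b, also called PCAF, acetylates histone H3 and transcription factors. Its lowest, median and highest intensities at 4 to 8 h were 626, 823.6 and 893.6 with Lps, against 298.6, 339.8 and 429 in Control cells (1.13 ± 0.07, adjusted p = 3.4e-21), with no overlap. Pic gave 499.8, 736.7 and 830.3 and a difference of 0.98 ± 0.07, just short of the threshold, and Lps minus Pic was 0.15 ± 0.07. Pam stood apart at -0.18 ± 0.07: Lps minus Pam was 1.31 ± 0.07 and Pic minus Pam 1.16 ± 0.07 for Kat2b, and both differences passed. A second probe set of Kat2b gave 1.48 with Lps and also passed. Its close relative Kat2a was lowest in the same window, at -0.79 ± 0.1 with Lps. Kat6a reached 0.66 ± 0.05 with Pic. Brd2, a reader of acetylated histones, was higher with Pic at 4 to 8 h by 0.93 ± 0.07, with a median of 533.1 against 270 in Control cells and no overlap. With each array centred on its median, Brd2 passed with Pic (1.04) and Lps (1.02).

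Of the 15 remodellers, Chd1, an ATPase found at transcribed genes, passed with Lps and Pic. Its lowest, median and highest intensities at 4 to 8 h were 154.6, 252.8 and 317.3 with Lps, against 84.9, 93.7 and 104.6 in Control cells (1.3 ± 0.06, adjusted p = 6.9e-28). Pic arrays of Chd1 ranged from 175.3 to 221.6 (1.0 ± 0.06). Neither group overlapped Control. The Pic call was lost without the 6 h arrays (0.94), without the second array at 4, 6 or 8 h (0.97 to 0.99), and without the Control array at 0, 2, 8 or 24 h (0.98 to 1.0), and it was 0.90 with 16 added and 0.93 against Control arrays of the same times. With the mean of its 3 probe sets Chd1 gave 0.85 with Lps and 0.56 with Pic.

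The remaining remodellers stayed below the size threshold. Chd4, the ATPase of the NuRD complex, had medians of 167 with Lps at 0.5 to 2 h and 171.1 with Pic at 4 to 8 h, against 89.6 in Control cells, with differences of 0.89 ± 0.11 and 0.88 ± 0.11. Chd1l was lowest with Pic at 4 to 8 h, at -0.93 ± 0.08, and Smarcal1 with Lps, at -0.91 ± 0.09. Smarca2, one of the alternative ATPases of the SWI/SNF complex, lay at the floor on all 6 Grd arrays at 4 to 8 h against a Control median of 35.8, so its difference of -0.79 is only a lower bound in size. Smarce1 and Smarca5, the brightest, moved by at most 0.49 and 0.35, both with Lps.

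Of 6 arginine methyltransferases, 2 fell against Control and 4 differed between Pic and another ligand late in the course. Of all items, 12.7% fell in at least 1 window, and 3.44% to 8.47% passed in a late pair with Pic. The share of all items that passed in any of those pairs was not computed. Prmt5, which adds symmetric dimethylarginine to histones and splicing proteins, fell at 4 to 8 h with Lps, to 21.2, 23.5 and 29.1 (lowest, median, highest), against 37.2, 56.2 and 83.2 in Control cells (-1.2 ± 0.12, adjusted p = 1.4e-13), with no overlap. With Pic it fell to 20, 25.2 and 45 (-1.05 ± 0.12), and that range overlapped Control. Both Pic arrays at 8 h lay at the floor, so this difference is a lower bound in size. Leaving out the 8 h Pic arrays (-0.85), the second Pic array at 4 h (-0.96) or the Control array at 0 h (-0.96) or 4 h (-0.99) ended the Pic call. At 24 h the 2 arrays of Prmt5 read 86.1 and 80.9 with Lps and 33.6 and 44 with Pic, against 37.2 in the Control array of that time. With 16 added before the logarithm neither fall of Prmt5 passed (-0.86 with Lps, -0.75 with Pic), and the Pic value also missed with centred arrays (-0.93) and with a Control trend (-0.97). Prmt3, which acts on a ribosomal protein, fell with Lps at 4 to 8 h to 29.1, 39.6 and 45.9, against 65.9, 86 and 116.5 in Control cells (-1.14 ± 0.09, adjusted p = 7.8e-17), again with no overlap. The Prmt3 value with Lps was -0.90 with 16 added and -0.95 with centred arrays, both under the threshold. With Pic the Prmt3 differences were -0.23 at 4 h, -1.1 at 6 h and -1.6 at 8 h, and the window as a whole was not called.

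The Control level of this group was itself not steady. Prmt7, an enzyme that adds single methyl groups to arginine, read 78.6 at 0 h, 59.4 at 4 h, 34.7 at 12 h and 22.6 at 24 h in Control cells, a fitted change of -1.89 ± 0.36 (adjusted p = 0.038). The fitted Control changes of Prmt1, Prmt6, Prmt5 and Prmt3 were -1.3, -1.02, -0.95 and -0.84, with adjusted p of 0.12, 0.055, 0.051 and 0.039, and none passed both parts of the rule. Both called Control trends, Prmt7 and Kmt5c, missed the adjusted p threshold when the Control array at 1, 4, 8, 12 or 24 h was left out, and Prmt7 also without that at 2 h, with fitted changes of -1.98 to -1.69 for Prmt7 and 1.11 to 1.25 for Kmt5c. Prmt1, the main asymmetric arginine methyltransferase, was 0.81 ± 0.21 higher with Pam at 12 to 24 h against all Control arrays. Against the Control arrays at 12 and 24 h alone Prmt1 passed with Lps (1.16), Pam (1.22), Cpg (1.07) and Grd (1.23), while Pic gave 0.00 ± 0.3.

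**Figure D4:**
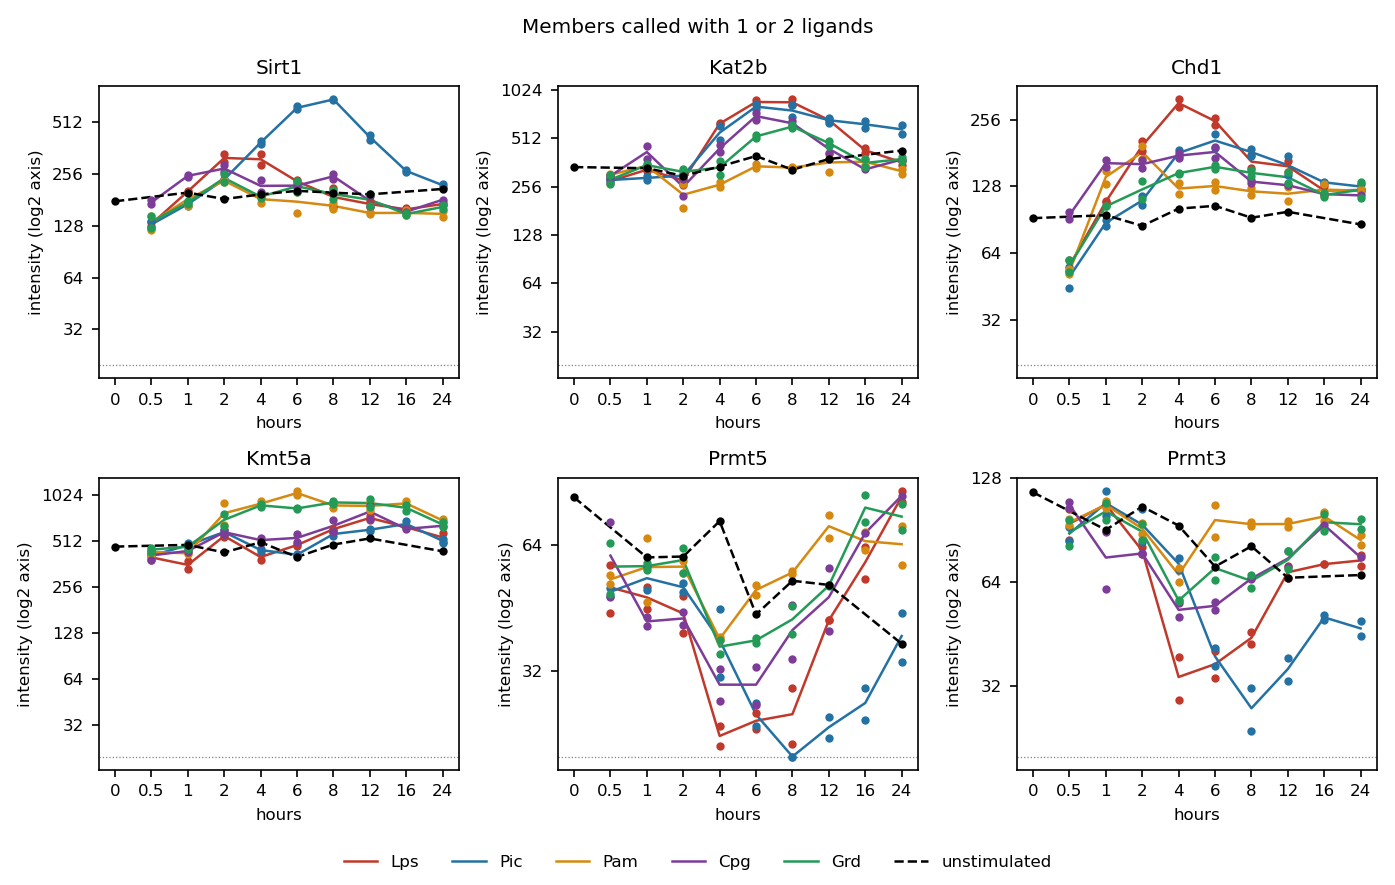
Array intensity (log2 axis, own scale in each panel) against hours for Sirt1, Kat2b, Chd1, Kmt5a, Prmt5 and Prmt3, drawn as dots for arrays, lines for means, a dashed black line for unstimulated cells and a dotted line at the floor of 20. Sirt1 peaks with Pic at 8 h (691 and 687.9), Kat2b stays low with Pam, Kmt5a is highest with Pam and Grd, and Prmt5 averages 23.5 with Pic at 12 h and 38.8 at 24 h, where the unstimulated array reads 37.2.

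Differences between ligands were tested directly, without Control arrays. A difference of place between ligands, if present, would remain in these tests. At 4 to 8 h, 13 member differences passed over the 10 ligand pairs. Lps minus Pam held 4 (6.35%, against 6.15% of all items), Pic minus Pam 3 (background 8.24%), Pic minus Cpg 2 (3.41%), Pic minus Grd 2 (4.03%), Lps minus Pic 1 (3.72%) and Pam minus Cpg 1 (3.03%). The other 4 pairs had 0 in limma (Lps minus Cpg, background 0.465%; Lps minus Grd, 1.99%; Pam minus Grd, 1.48%; Cpg minus Grd, 0.417%), with 27, 43, 30 and 23 members at an unadjusted p under 0.05. The genes were Sirt1, Kat2b, Kdm5b, Prmt3 and Dnmt3l. Dnmt3l separated Pam most: Lps minus Pam was -1.64 ± 0.09, Pic minus Pam -2.11 ± 0.09 and Pam minus Cpg 1.0 ± 0.09, the last with overlapping arrays. Prmt3 was also lower with Lps than with Pam, by -1.14 ± 0.1. Pam minus Cpg for Dnmt3l fell to between 0.95 and 1.0 on leaving out the first Cpg array at 8 h, the second at 4 or 6 h, the first Pam array at 6 h or the second at 4 or 8 h. With 16 added it was 0.83 and Pic minus Cpg -0.77 for Dnmt3l, and Lps minus Pam was -0.90 for Prmt3 and -0.91 for Kdm5b, so these 4 did not pass.

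At 12 to 24 h 16 member differences passed, and each involved Pic. Pic minus Pam held 5 (7.94%, against 8.47% of all items), Pic minus Cpg 4 (6.35%, background 5.08%), Pic minus Grd 4 (background 6.35%) and Lps minus Pic 3 (background 3.44%). Among pairs of the other ligands limma passed 0 of the 63. Their backgrounds were 2.97% for Lps minus Pam, 0.579% for Lps minus Cpg, 1.2% for Lps minus Grd, 1.17% for Pam minus Cpg, 0.645% for Pam minus Grd and 0.237% for Cpg minus Grd, and 13 to 25 members had an unadjusted p under 0.05. Dnmt3a was higher with Pic: Pic minus Grd was 1.94 ± 0.05, Pic minus Pam 1.87 ± 0.05, Pic minus Cpg 1.7 ± 0.06 and Lps minus Pic -1.63 ± 0.05. Dnmt3l was lower with Pic, with Pic minus Pam at -2.97 ± 0.09, Pic minus Cpg at -2.66 ± 0.1, Pic minus Grd at -2.51 ± 0.09 and Lps minus Pic at 2.82 ± 0.09. The Pic arrays of Dnmt3l lay at or near the floor, so these are lower bounds in size, and they depend on the added constant: with 16 added they were -2.38, -2.09, -1.95 and 2.24. In none of these 8 comparisons did the arrays overlap.

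The arginine methyltransferases gave the other late differences between ligands. Prmt5 intensity at 12 to 24 h was 22.1, 27.1 and 44 with Pic (lowest, median, highest), and its means were 66.9 with Pam, 62.1 with Cpg, 68.2 with Grd and 61.4 with Lps. Pic minus Pam and Pic minus Grd were both -1.18 ± 0.12 for Prmt5, Pic minus Cpg was -1.14 ± 0.14 and Lps minus Pic 1.0 ± 0.12, and the last 2 pairs overlapped. Prmt1 gave -1.14 ± 0.22 for Pic minus Pam and -1.08 ± 0.26 for Pic minus Cpg. Prmt3 gave -1.06 ± 0.1 for Pic minus Pam, and Prmt7 -1.01 ± 0.17 for Pic minus Grd. Of these 8 differences 1 passed with 16 added, Prmt1 in Pic minus Pam. For Prmt5 the values then were -0.87 (Pic minus Pam), -0.88 (Pic minus Grd), -0.85 (Pic minus Cpg) and 0.74 (Lps minus Pic), and Prmt1 in Pic minus Cpg gave -0.96, Prmt3 -0.85 and Prmt7 -0.71. Centred arrays also took Prmt5 in Lps minus Pic (0.96), Prmt3 (-0.99) and Prmt7 (-0.95) under the threshold. The Lps minus Pic value of Prmt5 was 0.94 to 0.99 without the first Pic array at 12, 16 or 24 h, the first Lps array at 24 h or the second at 16 h, and Pic minus Cpg was -0.95 without the Cpg array at 24 h. Leaving out the first Pic array at 24 h gave -0.98 and -0.92 for the Prmt1 pairs with Pam and Cpg, and the first Cpg array at 12 h gave -0.94 for the pair with Cpg. For Prmt7, values of -1.0 to -0.96 followed the loss of the first Pic or Grd array at 24 h or the second Pic array at 12 or 16 h.

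**Figure D5:**
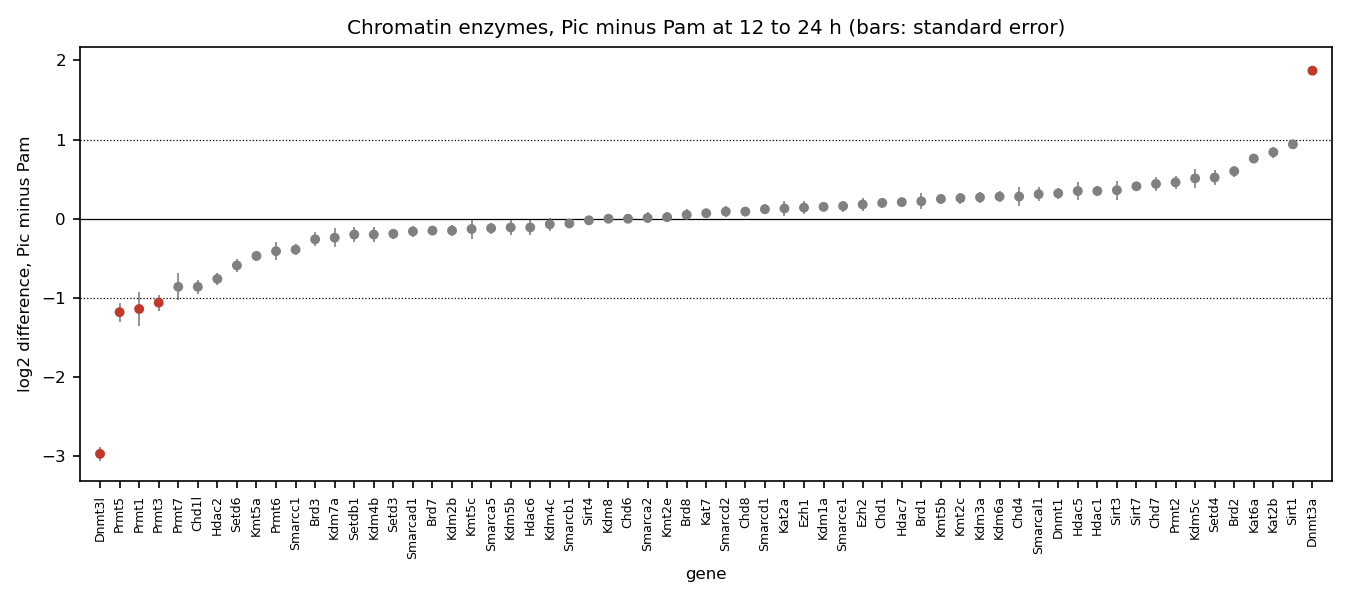
Log2 difference in intensity, Pic minus Pam, at 12 to 24 h for each of the 63 chromatin enzyme genes in order of size; bars are standard errors, red points passed the test and the dotted lines mark a difference of 1 either way. Dnmt3l (-2.97, a lower bound in size because Pic arrays lie near the floor) and Dnmt3a (1.87) lie at opposite ends, and Prmt5, Prmt1 and Prmt3 are the other members past the lines.

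At 0.5 h several members were below Control with the 4 ligands that had a plate column of their own at this time, and less so with Cpg, which lay in the columns of the Control arrays. Chd1 read 53 and 59.2 with Lps, 44.3 and 55.6 with Pic, 51.3 and 54.3 with Pam, 52.4 and 59.6 with Grd and 98.5 and 91.5 with Cpg, against 84.9 to 104.6 in Control cells. Kdm7a, a demethylase, differed by -1.24 to -1.01 with those 4 ligands and by -0.39 with Cpg. Sirt1 differed by -0.58 to -0.53 and by -0.16 with Cpg. Other members lay above Control at 0.5 h: Prmt7 by 0.95 and Chd4 by 0.81 with Lps, and Prmt1 by 0.95 and Chd4 by 0.85 with Pic. Prmt7 and Prmt1 had downward fitted changes in Control cells, as given above. Members above Control at this time were not counted. Members at least 0.5 below Control on the log2 scale made up 11.1% with Lps (6.97% of all items), 11.1% with Pic (9.96%), 6.35% with Pam (5.9%), 4.76% with Grd (5.78%) and 1.59% with Cpg (2.26%). Place on the plate cannot be told apart from time within those 4 ligands, nor from ligand between them and Cpg.

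Other chromatin genes, whose symbols the rule leaves out, were listed too. Of 79 listed, 54 were tested, and 2 rose and 1 fell with Lps at 4 to 8 h, where 15.3% of all items passed. Riox2, a ribosomal and histone oxygenase, rose with Cpg (1.85), Grd (1.74), Lps (1.57) and Pam (1.46) at 4 to 8 h. Hat1, which acetylates newly made histone H4, rose with Lps (1.08) and Pic (1.02). Jarid2, a Polycomb partner, rose with Pic (1.16), as did the SWI/SNF subunit Arid2 (1.02). Asxl1 fell with Lps (-1.0) and Ncoa1, a coactivator, with Pam (-1.38). The list's median lay between -0.19 and 0.05 at 4 to 24 h.

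Markers of neutrophils, macrophages and dendritic cells are given beside the late values. The summed intensity of 8 neutrophil markers at 12 to 24 h was 1227 to 3048 with Lps, 3937 to 6206 with Pic, 2304 to 3247 with Pam, 1618 to 3801 with Cpg and 2197 to 4412 with Grd, against 5192 to 8210 in Control cells. Cxcr2 among them lay at the floor in Control cells and Mpo and Elane averaged 25.8 and 31.3. The sum of 6 macrophage markers in the same window was 11990 to 16730 with Lps, 8850 to 11310 with Pic, 15200 to 20920 with Pam, 13510 to 18980 with Cpg and 14830 to 21220 with Grd, against 9720 to 14730 in Control cells. The 6 macrophage markers were split: Cd14 and Adgre1 rose and Mrc1 and Mertk fell with each ligand but Pic, with which Mrc1 fell alone. The list's median was -0.37 for Lps, -0.13 for Pic, -0.16 for Pam, -0.25 for Cpg and -0.23 for Grd, all below 0. The sum of 9 dendritic cell markers was 18790 to 24170 with Lps, 21740 to 23680 with Pic, 17630 to 23650 with Pam, 18390 to 22670 with Cpg and 15860 to 22150 with Grd, against 22550 to 24450 in Control cells. The dendritic cell markers were split too. Batf3, a transcription factor of cross-presenting dendritic cells, fell with Lps (-1.31), Pam (-1.31), Cpg (-1.2) and Grd (-1.22) and was not called with Pic. Cd86 from the same list rose with Lps and Pic, and Ciita fell with Grd. The macrophage sums with Pic lay below those with the other 4 ligands, and the neutrophil sums with Pic overlapped only those with Grd. These shifts lie in the window in which Dnmt3l and Dnmt3a differed between Pic and the other ligands, and their part in those values was not tested.

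Promoter windows were found for 55 of the 63 members. The members' median was 22 CG dinucleotides per 300 bases, against 7 for all 27025 genes of the table. Altogether 3 motifs were searched on both strands: kappaB by its usual consensus, the interferon response element as GAAA, any 2 bases, then GAAA, and E2F as TTT, then GG or CC, then CGC. The kappaB motif was in the windows of 7 members (Chd4, Kdm2b, Kdm5b, Prmt1, Sirt3, Smarca2 and Smarcd1), against 9.55% of all genes. E2F was in 6 members (Brd7, Dnmt1, Ezh2, Kmt5c, Sirt4 and Smarcd1), against 1.8% of all genes, and the interferon response element in 1 (Brd7), against 3.99%. Dnmt1 and Kmt5c, which both fell with Lps, Cpg and Grd at 4 to 8 h, share the E2F letters, in Dnmt1 at 1 of its 3 listed starts. The other E2F members, Brd7, Ezh2, Sirt4 and Smarcd1, were not called in any ligand window. Hdac5 and Sirt3 fell with the same ligands at 4 to 8 h and had no E2F match. A match describes the letters in the window and not binding.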

How the data were processed

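RNA from mouse bone marrow dendritic cells was measured on 96 expression arrays. The deposited values are array intensities on a linear scale that never fall below 20; per the submitters' processing notes they were made with RMA. The sources used here give neither its version nor how the linear scale and the floor came about. Of 18858 probe sets, 4409 lay at the floor on every array. Probe sets were named through the platform annotation: 15044 had 1 gene symbol, 257 several and 3557 none. The probe set with the highest mean stood for its gene, and unnamed probe sets were kept, which gave 10543 items.

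Values were taken as log2(intensity + 1) and fitted with limma 3.58.1 in R 4.3.3, with a mean for each ligand and time and 1 for all Control arrays. Windows were averages of those means, so no sample was imputed or dropped. Empirical Bayes standard errors were used and p-values were adjusted over all items by Benjamini-Hochberg. On simulated data 200 items were changed with Lps at 4 to 8 h, each by more than the size threshold, with independent noise. In that window the fit recovered 100% of rises and 100% of falls above 100 in intensity, with 0 false calls. The simulation covers neither changes near the threshold nor shifts with plate or time. Many of the falls named above began below 100 in Control cells, where recovery is not given. The members and gene lists were chosen with earlier results of these data known. All members may be named; those that changed in a ligand window are given by their array values, the rest by range and count. Promoters were printed for up to 4 members changed one way by the most ligands and 2 changed by Pic and not Pam or the reverse. The alternatives were 16 added in place of 1, no filter at the floor, median centring, a replicate block, Control arrays of the same times, a linear trend in Control, the mean of a gene's probe sets, a plate column block for Cpg, and leaving out each array or time.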

Additional observations from a re-analysis of the deposited data

Results flagged for a closer look

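Within 3 ligands the difference between 12 to 24 h and 4 to 8 h passed a direct limma test for 6 members, so their values differed between time windows of the same ligand. With Lps the log2 differences, late minus middle, were 2.4 for Dnmt3l, 1.62 for Dnmt1, 1.27 for Prmt5, 1.22 for Sirt3, 1.18 for Kdm5b and 1.01 for Kmt5c. Cpg gave 1.6 for Dnmt3l and 1.45 for Dnmt1, and Grd gave 1.12 for Dnmt3l and 1.07 for Dnmt1. All 10 were higher late. Control cells changed over the day as well. The fitted log2 change from 0 to 24 h without ligand was 0.94 for Sirt3, 0.84 for Kdm5b and 1.22 for Kmt5c. It was 0.01 for Dnmt1, -0.13 for Dnmt3l and -0.95 for Prmt5. The part of such changes in the late minus middle differences was not tested. The Kmt5c value fell to between 0.95 and 1.0 without the first Lps array at 4, 6, 8, 12 or 24 h or the second at 16 h. The Dnmt1 value with Grd fell to 0.98 without the second Grd array at 12 h. Among unstimulated arrays, 16 members were tested for 1 array far from the rest, and 0 were so.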

How the results depend on the processing

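Of 85 pairs of a named member and a comparison that passed, 41 passed under every alternative, 42 under all that leave out no array, 62 under all that do, and 0 reversed direction. With 16 added before the logarithm the counts were 0 for Lps and for Pam at 0.5 to 2 h; at 4 to 8 h they were 5 for Lps, 2 for Pic, 2 for Pam, 3 for Cpg and 2 for Grd; the sum over late ligand pairs was 9 and over late minus middle comparisons 4. Centring each array gave 0 for Lps and for Pam at 0.5 to 2 h. Control arrays of the same times and a linear Control trend each gave 0 for those 2 counts, and at 12 to 24 h 5 for Lps, 3 for Pam, 5 for Cpg and 5 for Grd; Pic gave 1 with the same times. Without the filter the Control trend count was 0, the fitted changes being the same and more items adjusted over. Leaving out arrays gave, at 0.5 to 2 h, 0 to 1 for Lps, 0 to 0 for Pic, 0 to 1 for Pam, 0 to 1 for Cpg and 0 to 0 for Grd. At 4 to 8 h it gave 10 to 13 for Lps, 3 to 9 for Pic, 3 to 5 for Pam, 4 to 6 for Cpg and 4 to 5 for Grd. At 12 to 24 h it gave 2 to 3 for Lps, 2 to 5 for Pic, 1 to 2 for Pam, 2 to 3 for Cpg and 2 to 3 for Grd. The sums were 12 to 14 over middle pairs, 12 to 19 over late pairs and 9 to 11 over late minus middle comparisons, and the Control trend count was 0 to 2. The cause of these moves was not tested beyond the fewer samples or added items of each. With the replicate number as a replicate block, 41 of the 44 window calls passed; Dnmt3a with Lps (1.0, under the threshold before rounding), Chd1 with Pic (0.98) and Kmt5a with Pam (0.99), all at 4 to 8 h, did not. The labels do not say whether the replicate numbers mark a batch. Deviations of same-numbered arrays correlated between groups at a median of 0.00758 (-0.328 to 0.349 over 903 pairs of 43 groups), and 17.4% exceeded 0.1. These pairs pool all ligands, so their median cannot show whether arrays of a single ligand share a batch. A plate column block for Cpg kept 8 of 9 calls. The floor hides the full size of differences of members such as Hdac5, Sirt3, Smarca2, Dnmt3l, Kdm5b (Lps) and Prmt5 (Pic). The labels do not show whether arrays were separate cultures.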
